A study of Homo sapiens with 12 samples.

Results

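Oxidative phosphorylation is built from the transcripts of 2 genomes, and both were measured here in human fibroblasts. The group held 102 of the 60671 genes in the count table. Of these, 13 were the protein-coding genes of the mitochondrial genome and 89 were nuclear genes for subunits of complexes I to V and for cytochrome c. The nuclear members were taken by gene symbol. There were 37 for complex I, 4 for complex II, 10 for complex III, 1 for cytochrome c, 19 for complex IV and 18 for complex V. The 13 mitochondrial members were 7 of complex I, 1 of complex III, 3 of complex IV and 2 of complex V. Another 9 genes whose symbols match but which are named as assembly factors or as the ATP synthase inhibitor, and 2 read-through genes, were not counted as subunits. All cells were BJ-5ta, foreskin fibroblasts immortalised with telomerase, grown in RPMI 1640 with penicillin and streptomycin. WT_10 is the wild type in 10% serum and WT_01 is the wild type after 10 days in 0.1% serum. Leo1_10 and Leo1_01 are a line in which CRISPR/Cas9 cut exons 1 and 2 of LEO1, a subunit of the RNA polymerase II-associated factor complex, in the same 2 sera. This ΔLEO1 line is 1 clone, so clone and genotype cannot be told apart. The 3 libraries of each group, numbered from 1 to 12 across the study, were made from poly(A) RNA, and the ERCC spike-in was added to each. No source used here says that the 3 came from separate cultures, so the p-values measure the spread between these libraries.

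Complexes I to IV pass electrons from NADH and succinate to oxygen. Complexes I, III and IV also pump protons across the inner mitochondrial membrane, which complex II does not, and complex V, the ATP synthase, makes ATP from the proton gradient. The mitochondrial genome is copied into long transcripts from both strands by its own polymerase, and these are cut into mRNAs, mostly at the tRNAs that lie between them. The nuclear subunits are copied by RNA polymerase II, translated in the cytosol and imported, so the proteins of both genomes meet when the complexes are assembled.

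LEO1 stood at 20.4 to 30.5 CPM, its counts scaled to the library's gene counts, in the 6 wild-type libraries and at 0.661 to 1.45 CPM in the 6 ΔLEO1 libraries, as labelled. The libraries held 26240000 to 45320000 gene counts, which makes the 95% Wilson interval of the mitochondrial share of a library at most 0.0129 percentage points wide, for counting error alone. Library 12, in Leo1_01, stood furthest apart. Over all tested genes, each centred on its mean over the 12 libraries, its mean correlation with the rest of its group was 0.431. Every other library had at least 0.626 with its own group. These values describe deviations from the gene means, not the levels themselves. The highest-numbered library was the lowest in each group, at 0.626 for library 3, 0.784 for library 6 and 0.695 for library 9. Results that rest on library 12 are given with and without it. Counts without the highest-numbered library of each group come at the end. All 10 fibroblast markers were detected. Over 1 CPM were 0 of 3 endothelial, 0 of 4 striated muscle, 1 of 4 epithelial and 1 of 3 leukocyte markers. The leukocyte markers summed to 0.204 to 0.627 CPM in the wild type, to 1.44 to 5.96 CPM in Leo1_10 and to 5.67 to 7.16 CPM in Leo1_01, almost all of it PTPRC, and their part in the results was not tested.

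The libraries were made from poly(A) RNA, and the ends of the mitochondrial mRNAs are shown because of it. In 6 of the 13 annotated transcripts the last codon is followed by T or TA alone, and the poly(A) tail completes the stop codon. The last 30 bases of these 6, read from the GENCODE transcripts on GRCh38, are printed with the stop codon bases in capitals.
MT-ND1, chrM:3307-4262: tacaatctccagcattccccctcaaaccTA
MT-ND2, chrM:4470-5511: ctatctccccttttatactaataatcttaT
MT-CO3, chrM:9207-9990: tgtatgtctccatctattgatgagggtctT
MT-ND3, chrM:10059-10404: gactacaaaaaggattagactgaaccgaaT
MT-ND4, chrM:10760-12137: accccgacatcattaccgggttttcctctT
MT-CYB, chrM:14747-15887: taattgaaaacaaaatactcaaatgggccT
MT-ND6, the only protein-coding gene on the other strand (chrM:14149-14673), ends in a full codon, and its mRNA is known to carry little or no poly(A).
MT-ND6, chrM:14149-14673: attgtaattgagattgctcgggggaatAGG
In 2 places neighbouring reading frames share bases and a single mRNA carries both proteins. Below, each of the 13 genes is counted as an mRNA, so the counts can hold both members of such a pair, which are not independent. The windows of 100 bases below show the shared stretch in capitals, 46 bases for MT-ATP8 and MT-ATP6 and 7 bases for MT-ND4L and MT-ND4.
MT-ATP8 and MT-ATP6, chrM:8473-8572: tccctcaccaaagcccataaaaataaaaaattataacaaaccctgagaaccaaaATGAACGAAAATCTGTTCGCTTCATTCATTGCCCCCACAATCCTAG
MT-ND4L and MT-ND4, chrM:10667-10766: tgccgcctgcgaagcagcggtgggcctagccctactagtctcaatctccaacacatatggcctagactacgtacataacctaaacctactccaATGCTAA

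The 13 mitochondrial mRNAs were far more abundant than the nuclear ones. Per kilobase of transcript, the median level over all libraries was 2192 CPM for the 13 and 28.5 CPM for the 89, a ratio of 76.9. The length was that of the longest among the best-ranked protein-coding transcripts of a gene, such as 3665 bases for ATP5F1E and 13566 for SDHC. Which transcripts these cells use was not tested, and shorter ones would raise the nuclear level and lower the ratio. MT-CO1, the catalytic subunit of complex IV, reached 4201 CPM per kilobase. Apart from MT-ND6 at 58.8, the lowest mitochondrial level was 1037 CPM per kilobase. With these lengths the highest nuclear level was 200.2 CPM per kilobase, that of ATP5F1B, the catalytic subunit of the ATP synthase. Of the 89 nuclear members, 81 passed the filter of more than 1 CPM in 3 libraries. COX4I2 and COX6A2, isoforms known from lung and from striated muscle, had 0 counts in all 12 libraries, and a floor of 3 counts is 0.114 CPM in the shallowest. COX6B2 reached at most 0.115 CPM, COX7B2 0.0863, COX8C 0.0597 and ATP5MGL 0.0297 CPM. NDUFA7 stood at 0.114 to 0.482 CPM and NDUFV2, another subunit of complex I, at 0.0891 to 0.516 CPM. Other annotated genes overlap 78.7% of the NDUFA7 transcript and 82.9% of the NDUFV2 transcript, and their part in these low levels was not tested.

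Low serum went with a larger share of mitochondrial mRNA. In the wild type the 13 mRNAs took 1.93%, 1.999% and 1.79% of gene counts in 10% serum and 2.83%, 2.91% and 3.53% in 0.1% serum. The 89 nuclear members took 0.407%, 0.411% and 0.442% in WT_10, and 0.384%, 0.414% and 0.423% in WT_01. The mitochondrial shares of the 2 groups did not overlap, and the nuclear shares did.

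The ratio of the 2 sums within a library does not depend on RNA input or on the spike-in. It was 4.56 ± 0.44 (SD, n = 3) in WT_10 and 7.58 ± 0.69 (SD, n = 3) in WT_01, a difference of 0.74 on the log2 scale, or 1.67-fold. For the ΔLEO1 line it was 4.88 ± 0.26 (SD, n = 3) in Leo1_10 and 6.55 ± 1.53 (SD, n = 3) in Leo1_01. Library 12 gave 4.78, within the range of 4.58 to 5.06 in Leo1_10, while the other libraries of its group gave 7.56 and 7.30. The serum difference in the ΔLEO1 line was therefore 0.40 on the log2 scale with library 12 and 0.61 without it. Between genotypes the log2 ratio differed by 0.10 in 10% serum, less than the SD of 0.14 in WT_10, and by -0.24 in 0.1% serum, or -0.03 without library 12. The mitochondrial shares of the ΔLEO1 line were 2.31%, 2.56% and 2.55% in 10% serum and 3.62%, 3.41% and, in library 12, 1.99% in 0.1% serum. Its nuclear shares were 0.505%, 0.506% and 0.510% in Leo1_10, and 0.479%, 0.467% and 0.415% in Leo1_01. In 10% serum both shares of the ΔLEO1 line lay above those of the wild type without overlap.

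**Figure D1:**
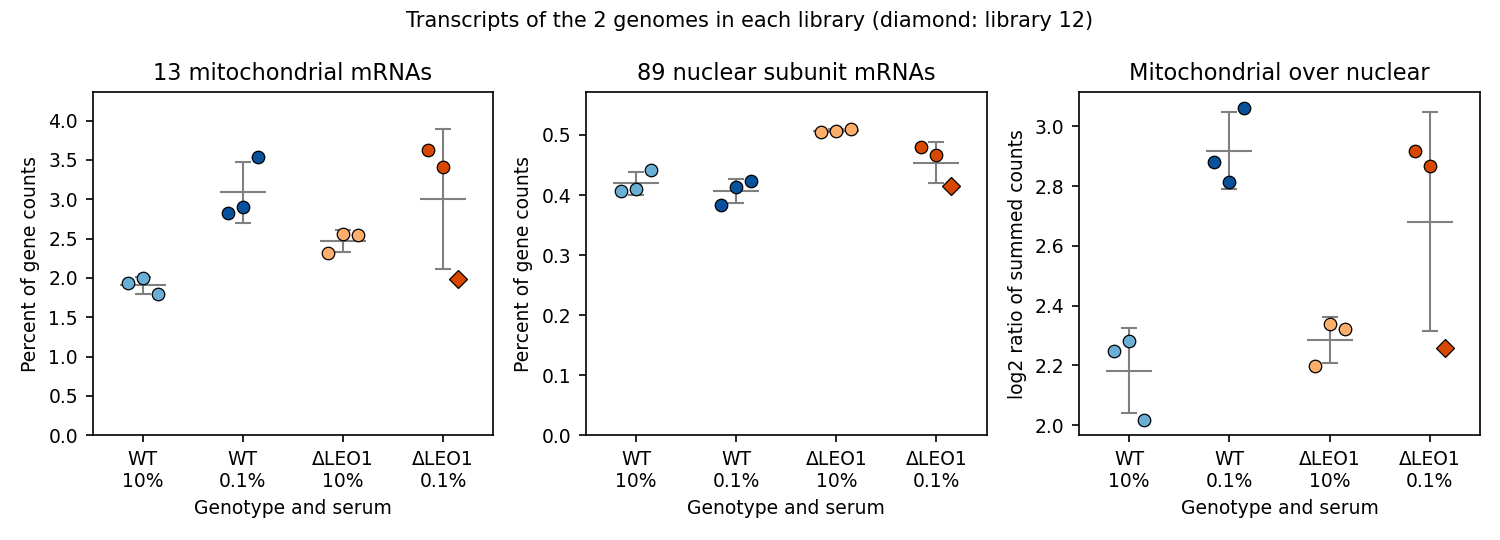
Percent of gene counts in the 13 mitochondrial mRNAs, percent in the 89 nuclear subunit mRNAs and the log2 ratio of the 2 sums in each library, by genotype and serum, with the mean and SD of 3 libraries. The ratio axis does not start at 0. The mitochondrial share was 1.79% to 1.999% in WT_10 and 2.83% to 3.53% in WT_01, and library 12, the diamond, lay at 1.99%.

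Gene by gene, the comparison relative to the other genes scaled each library by the TMM method on all genes. In the wild type 10 of the 13 mitochondrial mRNAs rose in 0.1% serum and 0 fell (edgeR likelihood ratio test, Benjamini-Hochberg adjusted p under 0.05), with a median log2 fold change of 0.72, while on the ERCC scale described further on the same 13 had a median of -0.28 and 0 calls. Over all 13236 genes tested, 16.0% were called higher and 16.6% lower, with a median of 0.00. On the ERCC scale the median of all genes was -0.97, so a rise relative to the other genes is a rise against that general shift. MT-ND3, a membrane subunit of complex I, stood at 196, 216 and 192 CPM in WT_10 and at 527, 581 and 666 CPM in WT_01. It rose the most, by 1.47 ± 0.25 (SE) on the log2 scale (adjusted p = 6.49e-08), and kept its call in each of 14 alternatives. MT-CYB, the cytochrome b of complex III, stood at 1187, 1237 and 1106 CPM in WT_10 and at 2221, 2311 and 2839 CPM in WT_01, a log2 fold change of 0.98 ± 0.22 (SE) at an adjusted p of 7.81e-05. The groups did not overlap for either gene. MT-CO1, MT-CO2 and MT-ND6 did not pass the test, at log2 fold changes of 0.44, 0.19 and 0.17.

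In the ΔLEO1 line the median log2 fold change of the 13 in 0.1% serum was 0.25, beside -0.99 on the ERCC scale, and only MT-CYB passed the test, at 0.54 ± 0.22 (SE, adjusted p = 0.0425). Over all genes 16.5% were called higher and 12.9% lower. Without library 12 the median was 0.50 and 11 of the 13 rose, all but MT-CO2 and MT-ND6, beside 18.5% of all genes. The call of MT-CYB was lost in 10 of 14 alternatives, the quasi-likelihood test among them. When the scale was instead the sum of the nuclear subunits, 11 of the 13 rose in the wild type (22.1% of all genes called higher, 9.53% lower) with a median of 0.85. In the ΔLEO1 line 6 rose (29.6% higher, 4.59% lower) with a median of 0.44, and without library 12 there were 12 (24.6% higher, 9.34% lower) with a median of 0.62. On that scale MT-CO2 and MT-ND6 did not pass the test in the wild type. The 6 of the ΔLEO1 line became 2 without library 4, 10 or 11 and 3 without library 5 or 6. The 2 serum comparisons share no library.

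The nuclear subunits as a set moved little against the other genes in low serum. In the wild type 15 of the 81 tested fell and 1 rose, which is 18.5% and 1.23% beside 16.6% and 16.0% of all genes, and their median log2 fold change was -0.11. In ΔLEO1 cells 18 fell and 1 rose, which is 22.2% and 1.23% beside 12.9% and 16.5% of all genes, with a median of -0.17. Without library 12 there were 10 that fell and 1 that rose, which is 12.3% and 1.23% beside 15.7% and 18.5% of all genes. The counts over both genomes were lower without single libraries, 16 in place of 26 in the wild type without library 3 or 8, and 11 in place of 20 in the ΔLEO1 line without library 4 or 5 and 10 without library 6. The shares called lower were therefore close to that of all genes in the wild type, and few subunits were called higher in either genotype. Members that fell in both genotypes numbered 12, or 14.8% of the 81 beside 8.72% of all genes, and without library 12 they numbered 7, or 8.64% beside 10.2%. The 12 were NDUFAB1, NDUFB2, NDUFC1, NDUFS1 and NDUFS8 of complex I, UQCRC2 and UQCRQ of complex III, COX5A and COX7A2 of complex IV, and ATP5F1B, ATP5F1C and ATP5MK of complex V. Of these calls, that of COX5A in the ΔLEO1 line was lost in 8 of 14 alternatives, among them that without library 12 (-0.20, adjusted p = 0.132), and that of ATP5F1B in the wild type in 7 of 14.

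Among the complex I genes, 6 of 35 fell in each genotype, which is 17.1% beside 16.6% of all genes in the wild type and 12.9% in the ΔLEO1 line, where 4 fell without library 12. NDUFAB1, the mitochondrial acyl carrier protein, stood at 26.2, 24.8 and 25.7 CPM in WT_10 and at 18.0, 18.4 and 17.0 CPM in WT_01, without overlap. Its log2 fold change was -0.61 ± 0.12 (SE) at an adjusted p of 4.86e-06 in the wild type and -0.55 ± 0.12 (SE, adjusted p = 3.69e-05) in the ΔLEO1 line. NDUFS8, an iron-sulfur subunit, fell by 0.45 in the wild type and by 0.56 in the ΔLEO1 line on the log2 scale. In complex II, SDHD, a membrane anchor of succinate dehydrogenase, was the 1 nuclear member that rose in the wild type, by 0.30 ± 0.12 (SE, adjusted p = 0.0424). It stood at 37.5, 37.3 and 38.5 CPM in WT_10 and at 46.5, 55.6 and 46.3 CPM in WT_01. Leaving out any of 7 single libraries, 1 at a time, ended this call. Other annotated genes overlap 24.0% of its transcript of 1439 bases. AP002884.3, on the same strand, overlaps 319 bases, and TIMM8B, on the other strand, 26 bases. The strand setting of the counting is not given in the sources used here.

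CYCS encodes cytochrome c, which carries electrons from complex III to complex IV. It stood at 68.3, 67.1 and 68.0 CPM in WT_10 and at 53.1, 55.3 and 44.9 CPM in WT_01, a fall of 0.50 ± 0.14 (SE) on the log2 scale (adjusted p = 0.00353). In the ΔLEO1 line the log2 fold change was -0.34 (adjusted p = 0.0579). CYC1, the cytochrome c1 of complex III, gave -0.16 and -0.22 and did not pass the test in either genotype. Of complex IV, 3 of 14 tested genes, or 21.4%, fell in the wild type. COX7A1, the isoform known from heart and skeletal muscle, was 20.1 ± 3.3 CPM (SD, n = 3) in WT_10 and 13.2 ± 3.1 CPM (SD, n = 3) in WT_01, with a log2 fold change of -0.69 ± 0.23 (SE) at an adjusted p of 0.0146. In Leo1_01 against Leo1_10 it was -0.46 (adjusted p = 0.128). Of complex V, 3 of 17 fell in the wild type, or 17.6% beside 16.6% of all genes, and 6 of 17 in the ΔLEO1 line, or 35.3% beside 12.9%, where 4 fell without library 12.

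On the ERCC scale, where each library is scaled by its spike-in counts, most genes were lower in 0.1% serum, and the mitochondrial mRNAs had a smaller median fall than the nuclear subunits. In the wild type 36.1% of all genes were called lower and 0.944% higher, with a median log2 fold change of -0.97. Of the nuclear members 39 of 81 fell and 0 rose, with a median of -1.08, while 0 of the 13 mitochondrial mRNAs were called in either direction, with a median of -0.28. At an unadjusted p under 0.05 the fit held 71 nuclear and 0 mitochondrial members, and the quasi-likelihood test and DESeq2 also called 0 of the 13. Without library 12 MT-CO2 (-0.81, adjusted p = 0.0386) and MT-ND6 (-0.85, adjusted p = 0.0326) were called lower, and 2 were also called without library 3, without library 11 and without the highest-numbered library of each group. The summed counts per effective ERCC count were 0.417 ± 0.104 (SD, n = 3) in WT_10 and 0.196 ± 0.048 (SD, n = 3) in WT_01 for the nuclear members, and 1.93 ± 0.62 and 1.47 ± 0.25 (SD, n = 3 each) for the mitochondrial mRNAs. The nuclear sums did not overlap and the mitochondrial sums did.

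In the ΔLEO1 line 47.2% of all genes were called lower and 0.975% higher on the ERCC scale, with a median of -1.05. Of the nuclear members 75 of 81 fell, with a median of -1.25. Of the mitochondrial mRNAs 6 fell, MT-ND1, MT-ND4, MT-ND4L, MT-ND6, MT-CO2 and MT-CO3, with a median over the 13 of -0.99. The mitochondrial sums were 3.11 ± 0.50 in Leo1_10 and 1.58 ± 0.48 in Leo1_01 (SD, n = 3 each), and the nuclear sums 0.642 ± 0.138 and 0.256 ± 0.118 (SD, n = 3 each). These counts rested on single libraries. In the wild type 0 nuclear members were called without library 7, 1 without library 1 or 9, 3 without library 2 and 25 without library 5, while 69 were called without library 3, 73 without library 11 and 76 without library 12. Of the nuclear calls in the ΔLEO1 line 0 were made without library 4 or 10 and 8 without library 11, and 40 without library 5. The 6 mitochondrial calls became 0 without library 4, 5, 10 or 11, 2 without library 2 or 7, and 12 without library 12. The nuclear medians stayed between -0.90 and -1.29 in the wild type and between -0.98 and -1.67 in the ΔLEO1 line. Between genotypes 0 of the 94 tested members were called on this scale in 10% serum (4.64% of all genes lower, 4.2% higher) or in 0.1% serum (3.59% lower, 3.85% higher), by the likelihood ratio or the quasi-likelihood test. At an unadjusted p under 0.05 there were 9 mitochondrial and 5 nuclear members in 10% serum, all higher, and 1 of each in 0.1% serum, while DESeq2 called 2 in 10% serum and 0 in 0.1% serum. Without library 11, 6 mitochondrial and 2 nuclear members were called in 10% serum, and without library 12 these were 7 and 2. The shares of all genes in the ERCC fits with a library left out are not given here, so those counts are not read as results about the members. The ERCC share of a library ran from 0.625% to 3.24%, and the RNA input of each library is not given, so less RNA per cell and less RNA in the tube cannot be told apart, nor can fewer cells.

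**Figure D2:**
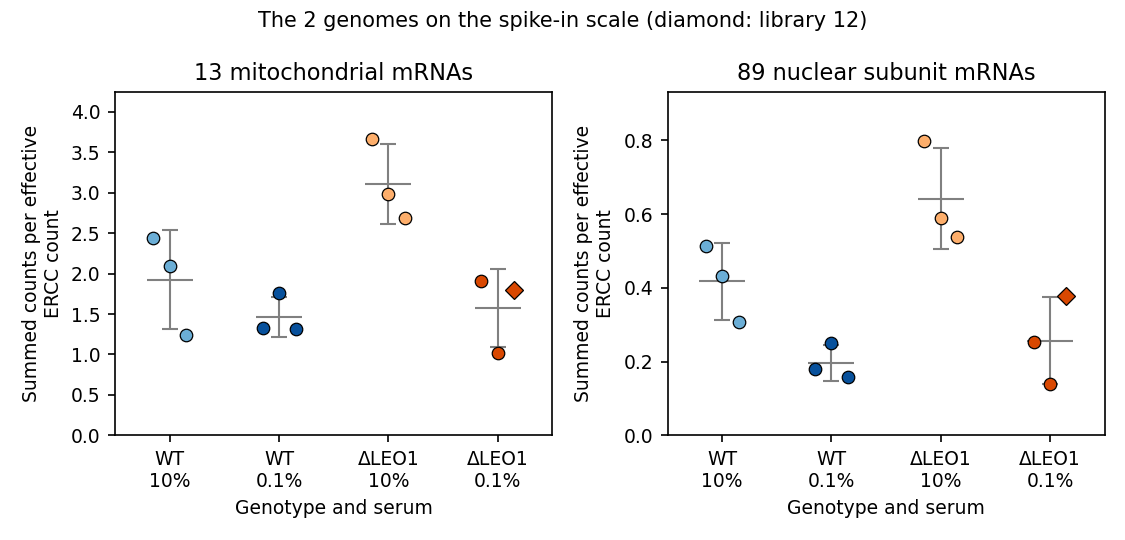
Summed counts of the 13 mitochondrial and the 89 nuclear subunit mRNAs per effective ERCC count in each library, by genotype and serum, with the mean and SD of 3 libraries. The nuclear sum was 0.307 to 0.514 in WT_10 and 0.158 to 0.250 in WT_01, while the mitochondrial sums, 1.24 to 2.44 and 1.32 to 1.75, overlapped.

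In 10% serum the ΔLEO1 line had more mitochondrial mRNA relative to the other genes than the wild type. Of the 13, 9 were higher and 0 lower (17.7% of all genes called higher, 21.8% lower), with a median log2 fold change of 0.66, beside 0.98 and 0 calls on the ERCC scale. The 9 were MT-ND1, MT-ND2, MT-ND3, MT-ND4, MT-ND4L, MT-ND6, MT-CO3, MT-ATP6 and MT-ATP8. They hold both pairs of genes that share an mRNA. MT-CO1, MT-CO2, MT-CYB and MT-ND5 gave -0.07, 0.17, 0.18 and 0.02 and did not pass the test. MT-ND6, the complex I subunit of the other strand, stood at 20.7, 21.1 and 18.4 CPM in WT_10 and at 38.1, 37.5 and 40.3 CPM in Leo1_10, without overlap, and its log2 fold change of 0.94 ± 0.18 (SE) at an adjusted p of 1.57e-06 was the largest of the 13. Its mRNA carries little or no poly(A), as said above, and the strand setting of the counting is not given in the sources used here. The part of either in this difference was not tested. MT-ND2 stood at 805, 845 and 798 CPM in WT_10 and at 1326, 1538 and 1617 CPM in Leo1_10, with a log2 fold change of 0.86 ± 0.22 (SE) at an adjusted p of 0.000445. Relative to the nuclear subunits 5 were higher, MT-ND1, MT-ND2, MT-ND4, MT-ND4L and MT-ND6 (6.9% of all genes called higher, 35.7% lower). All 5 are of complex I, which holds 7 of the 13, and its MT-ND3 and MT-ND5 were not called. MT-ND4 and MT-ND4L share an mRNA. The number of calls was 3 without library 1 or 2, 2 without library 3 or 5 and 9 without library 12. The 9 were not of complex I alone.

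In 0.1% serum MT-ND6 alone passed the test relative to the other genes, at 0.79 ± 0.18 (SE, adjusted p = 8.94e-05), with 19.6, 22.8 and 29.4 CPM in WT_01 and 40.3, 48.3 and 34.0 CPM in Leo1_01. Over all genes 15.4% were called higher and 17.6% lower, and the median of the 13 was 0.07. The call of MT-ND6 was kept in each of 14 alternatives in both sera. Without library 12 the calls numbered 6, MT-ND1, MT-ND2, MT-ND4, MT-ND4L, MT-ND6 and MT-CO3, with a median of 0.30 (17.6% of all genes higher, 19.7% lower). Relative to the nuclear subunits MT-ND6 was higher and MT-ND3, MT-CYB and MT-ND5 were lower (7.77% of all genes higher, 23.4% lower). Without library 12 there was 1 in each direction on that scale (7.06% higher, 36.4% lower), and without library 7 or 9 there were 2 calls in all.

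The make-up of the mitochondrial pool separated the genotypes. When each mRNA was taken as a percent of the 13, the 6 wild-type and the 6 ΔLEO1 libraries did not overlap for 8 of them, whatever the serum, library 12 included. Among all tested genes, set against the same mitochondrial total, 8.15% did not overlap. The other genes are not part of that total and also carry its own change with serum. That share is therefore not a like background for the 8. MT-CO1 took 29.3%, 29.5% and 29.2% in WT_10, 26.5%, 26.2% and 25.5% in WT_01, 21.6%, 21.6% and 21.7% in Leo1_10 and 23.0%, 23.5% and 22.4% in Leo1_01. MT-ND5 was also lower in the ΔLEO1 line, at 6.02% to 6.97% beside 7.71% to 8.27%. MT-ND4 took 13.1% to 14.3% in the wild type and 16.3% to 18.3% in the ΔLEO1 line. MT-ND2 took 4.16% to 5.28% in the wild type and 5.73% to 6.35% in the ΔLEO1 line. MT-CO3 took 9.75% to 11.1% in the wild type and 11.5% to 12.8% in the ΔLEO1 line. MT-ND1, MT-ND4L and MT-ND6 were likewise higher in the ΔLEO1 line, and MT-ND3, MT-CYB, MT-CO2, MT-ATP6 and MT-ATP8 overlapped. The shares of 13 mRNAs add up to a fixed total, and MT-ND4 and MT-ND4L share an mRNA, so the 8 are not independent of each other.

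Shares within the pool also differed with serum, those of MT-CO1 and MT-ND2 in the wild type among them. MT-ND3 took 1.01% to 1.08% in WT_10 and 1.86% to 1.998% in WT_01, beside 1.26% to 1.36% in Leo1_10 and 1.18% to 1.39% in Leo1_01. MT-CYB took 6.14% to 6.19% in WT_10 and 7.86% to 8.03% in WT_01, and 5.29% to 5.58% in Leo1_10 and 6.71% to 6.76% in Leo1_01, so that it was larger in 0.1% serum in both genotypes without overlap. Set against the same total, 73.3% of all genes did not overlap in the wild-type comparison and 16.3% in that of the ΔLEO1 line. Here and in the fit below, the shares of all genes also carry the change of the total itself. In a fit scaled by the mitochondrial total, MT-ND3 rose in the wild type in 0.1% serum, by 0.86 on the log2 scale (adjusted p = 0.00174; 2.52% of all genes higher, 38.9% lower), and MT-ND6 was higher in Leo1_01 than in WT_01, by 0.88 (adjusted p = 0.00807; 6.86% higher, 6.8% lower). In 10% serum 0 of the 13 were called between genotypes on this scale (3.54% higher, 22.4% lower) by the likelihood ratio test, 3 at an unadjusted p under 0.05 and 2 by the quasi-likelihood test. The fit draws the spread of each gene towards that of all genes set against this total. For MT-CO1 the SE was 0.223 on the log2 scale, beside shares of 29.35 ± 0.13% in WT_10 and 21.62 ± 0.07% in Leo1_10 (SD, n = 3 each). These p-values therefore do not measure the spread of the shares alone. Library 12 entered the estimate of the spread in this fit, and without it 6 were higher and 2, MT-CO1 and MT-ND5, lower (5.69% higher, 45.5% lower). With low serum 0 were called in the ΔLEO1 line (4.65% higher, 3.91% lower) by both edgeR tests and at an unadjusted p under 0.05, and without library 12 MT-CYB alone was higher (5.48% higher, 50.9% lower). In the wild type, without library 12, MT-ND2, MT-ND3 and MT-CYB were higher and MT-CO2 and MT-ND6 lower (3.67% higher, 66.5% lower). Between genotypes in 0.1% serum, without it, MT-ND6 was higher and MT-ND3 lower (6.15% higher, 29.3% lower). The interaction gave 0 calls by both edgeR tests and 1 at an unadjusted p under 0.05 (2.93% higher, 0.166% lower), and MT-ND3 alone without library 12 (3.82% higher, 0.774% lower). Stretches of 58 bases that also occur in annotated nuclear copies made up 44.8% of MT-CO1, 40.7% of MT-ND2 and 40.9% of MT-ATP6, and 0 of MT-ND3. The nuclear copies held 0.690 to 0.872 counts for each 100 counts of the 13 mRNAs. Of 4 nuclear copies that could be tested, 3 rose with low serum in the wild type and the same number were higher in Leo1_10 than in WT_10, relative to the other genes.

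**Figure D3:**
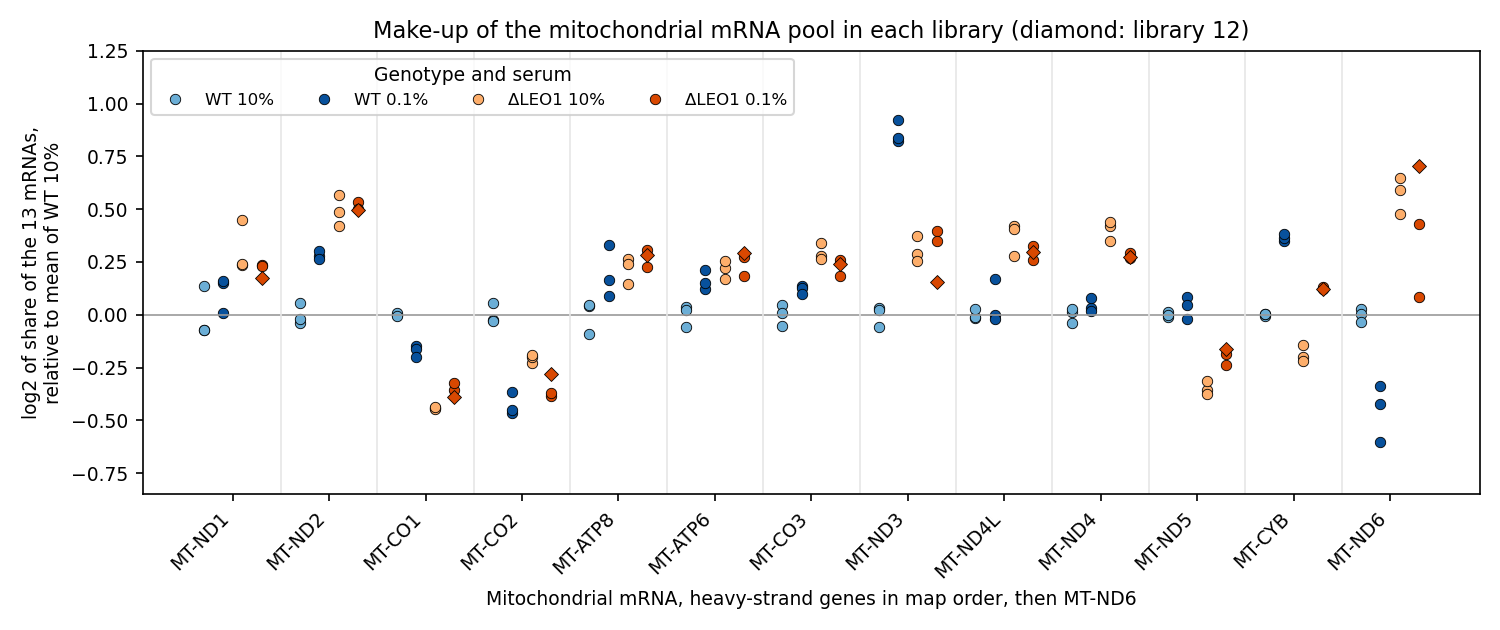
Share of each mRNA among the 13 mitochondrial mRNAs in each library, as log2 relative to the mean of WT_10, for the heavy-strand genes in map order and then MT-ND6. MT-CO1 lay lower in all 6 ΔLEO1 libraries (21.6% to 23.5%) than in all 6 wild-type libraries (25.5% to 29.5%), and MT-ND3 stood out in WT_01 (1.86% to 1.998%).

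Among the nuclear subunits, more were higher than lower in the ΔLEO1 line. In 10% serum 17 of 81 were higher and 1 lower relative to the other genes, which is 21.0% and 1.23% beside 17.7% and 21.8% of all genes, with a median log2 fold change of 0.17. In 0.1% serum 13 were higher and 1 lower, which is 16.0% and 1.23% beside 15.4% and 17.6% of all genes, with a median of 0.10. Without library 12 the second count was 25 higher and 1 lower (17.6% and 19.7% of all genes), with a median of 0.19. The shares called higher were near those of all genes with 12 libraries, and the shares called lower were far smaller. Called higher in both sera, in comparisons that share no library, were 12 members, or 14.8% of the 81 beside 10.2% of all genes, and 19 without library 12, or 23.5%, beside 1582 of all 13174 genes tested then. The 12 were NDUFA2, NDUFA9 and NDUFAB1 of complex I, SDHB of complex II, UQCRC2 and UQCRFS1 of complex III, CYCS, COX5A of complex IV, and ATP5F1B, ATP5F1C, ATP5PB and ATP5PF of complex V.

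CYCS had the largest positive difference of the nuclear members in both sera. It stood at 112, 124 and 115 CPM in Leo1_10 and at 99.2, 109 and, in library 12, 79.0 CPM in Leo1_01, above each of the 6 wild-type libraries. The log2 fold change was 0.78 ± 0.14 (SE) at an adjusted p of 7.04e-07 in 10% serum and 0.93 ± 0.15 (SE, adjusted p = 2.97e-09) in 0.1% serum, and both calls were kept in each of 14 alternatives. Stretches of 58 bases that occur in 9 other genes made up 2.75% of its transcript.

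Complex II was split. SDHB, the iron-sulfur subunit, stood at 36.0, 37.6 and 42.5 CPM in WT_10 and at 64.5, 63.6 and 63.4 CPM in Leo1_10, and at 35.5, 37.6 and 38.0 CPM in WT_01 and 53.4, 56.6 and 48.0 CPM in Leo1_01. The groups did not overlap. Its log2 fold change was 0.71 ± 0.12 (SE) at an adjusted p of 4.1e-08 in 10% serum and 0.53 ± 0.12 (SE, adjusted p = 0.000115) in 0.1% serum. SDHD was higher by 0.52 (adjusted p = 0.000118) in 10% serum and gave 0.22 (adjusted p = 0.161) in 0.1% serum, where it was called higher without library 12 (0.31, adjusted p = 0.0219). SDHA, the catalytic subunit, and SDHC, the other anchor, did not pass the test relative to the other genes in any comparison, with log2 fold changes between genotypes of 0.02 and -0.11 in 10% serum and of -0.12 and -0.09 in 0.1% serum.

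In complex V, 7 of 17 tested members, or 41.2%, were higher in 10% serum and 5, or 29.4%, in 0.1% serum, beside 17.7% and 15.4% of all genes, and 7 were higher in 0.1% serum without library 12. ATP5F1B stood at 304, 312 and 353 CPM in WT_10 and at 475, 491 and 487 CPM in Leo1_10, with a log2 fold change of 0.58 ± 0.11 (SE) at an adjusted p of 2.48e-06, and in 0.1% serum it was higher by 0.46 (adjusted p = 0.000292). In complex IV, COX5A stood at 44.7, 47.2 and 46.1 CPM in WT_10 and at 63.6, 62.9 and 61.5 CPM in Leo1_10. It was higher by 0.44 (adjusted p = 0.00397) in 10% serum and by 0.54 (adjusted p = 0.000455) in 0.1% serum. Of complex I, 3 of 35, or 8.57%, were higher in each serum, a smaller share than that of all genes, and 8, or 22.9%, were higher in 0.1% serum without library 12 beside 17.6% of all genes. NDUFC1, a small accessory subunit of complex I, was the only member called lower in 0.1% serum, at 22.2, 24.8 and 27.3 CPM in WT_01 and 18.5, 18.7 and 18.0 CPM in Leo1_01, a log2 fold change of -0.41 ± 0.13 (SE) at an adjusted p of 0.00513. In 10% serum it gave -0.24 (adjusted p = 0.110). Of complex III, 2 of 10 were higher in each serum, a share near the 17.7% and 15.4% of all genes, and 3 in 0.1% serum without library 12.

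**Figure D4:**
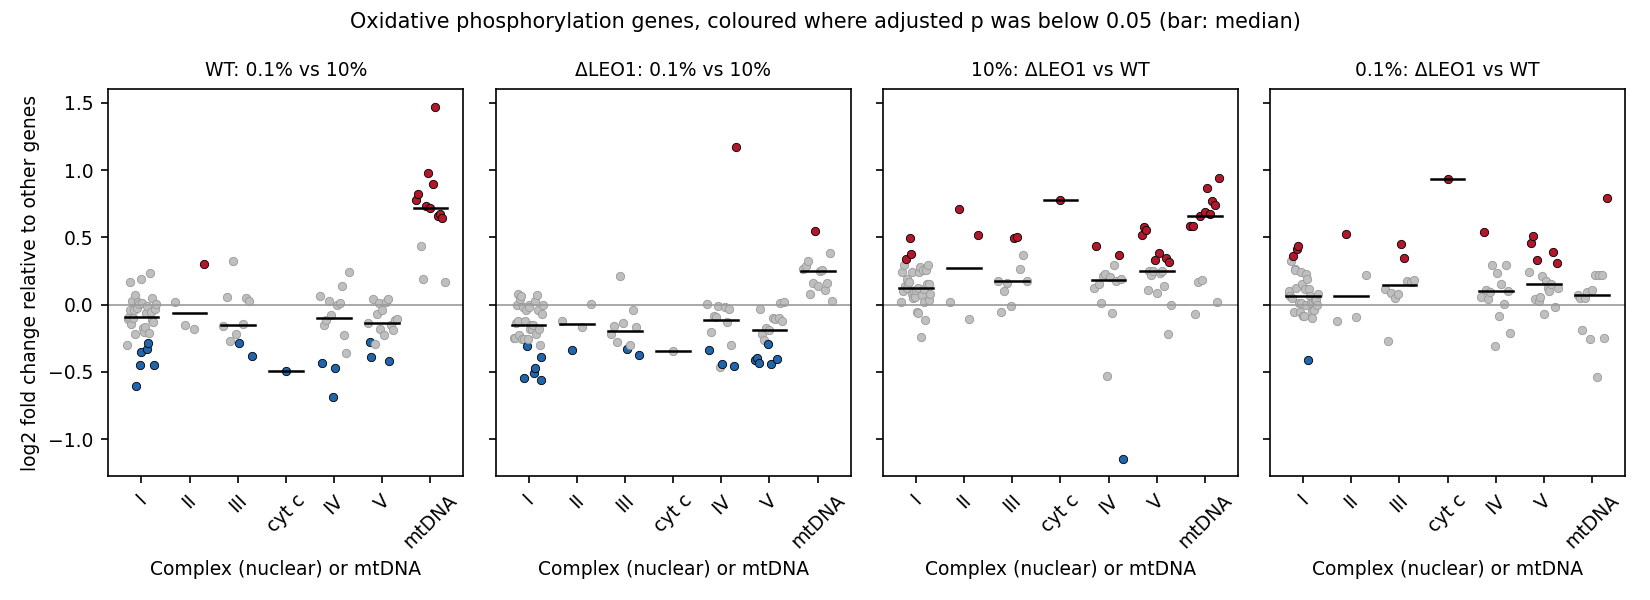
Log2 fold change relative to other genes for each tested member, by nuclear complex and for the mitochondrial mRNAs (mtDNA), in the 4 comparisons, with the median of each group as a bar. Coloured points passed the edgeR likelihood ratio test, red higher and blue lower, and the mtDNA medians were 0.72 (WT serum), 0.25 (ΔLEO1 serum), 0.66 (10% serum) and 0.07 (0.1% serum), while on the ERCC scale the first and the second were -0.28 and -0.99.

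**Figure D5:**
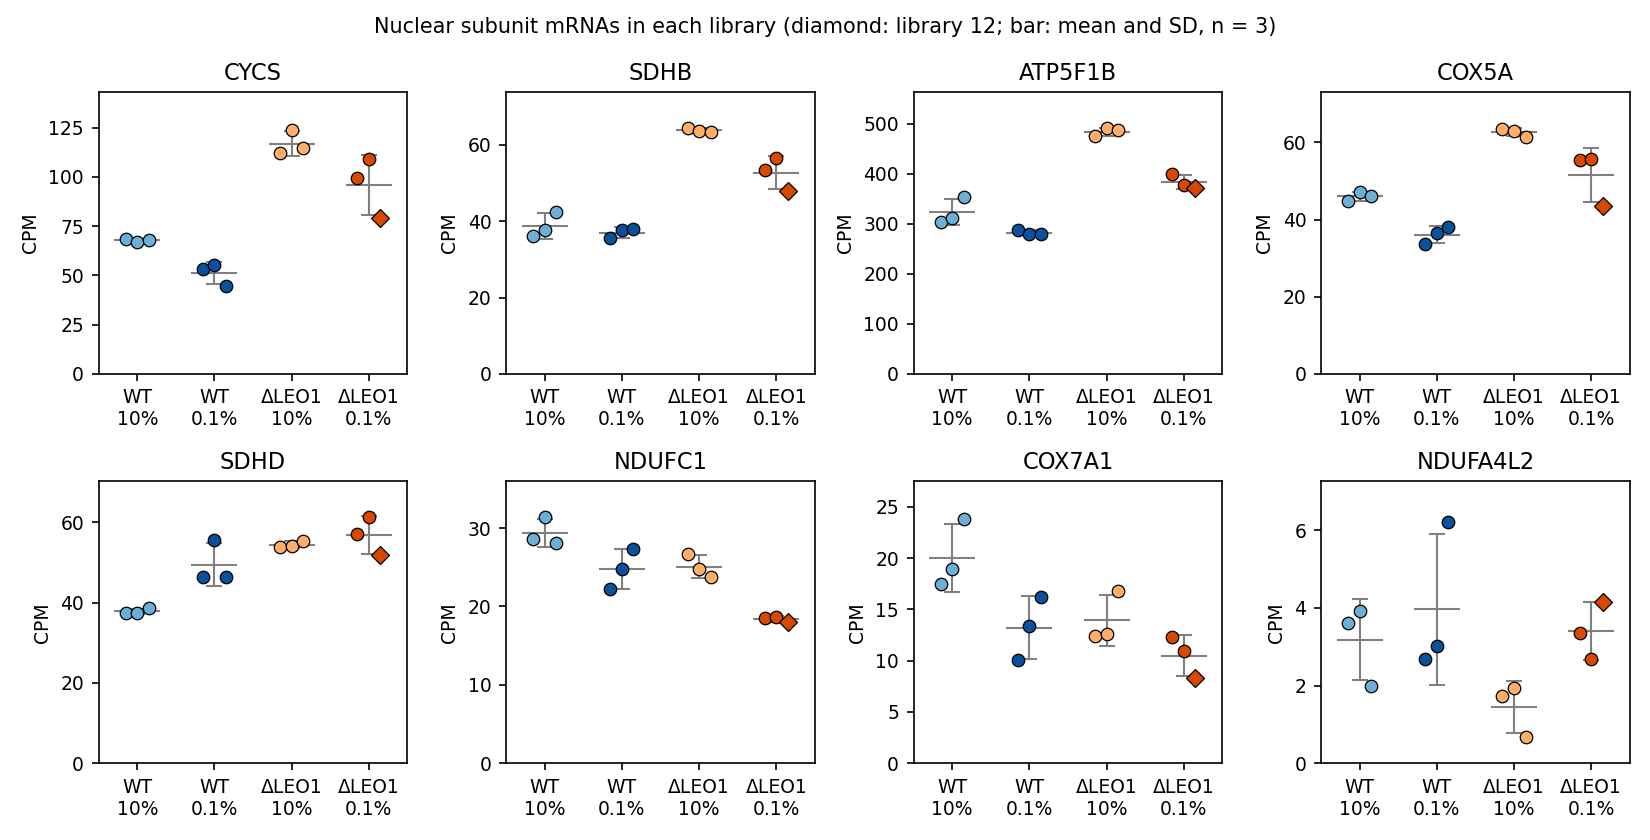
CPM of 8 nuclear subunit genes in each library, by genotype and serum, with the mean and SD of 3 libraries and axes that start at 0. CYCS and SDHB lay higher in all 6 ΔLEO1 libraries than in all 6 wild-type libraries, and NDUFA4L2 reached 6.21 CPM at most.

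Promoters of nuclear respiratory genes are known for sites of NRF1, of the ETS factor GABP and of YY1. A RefSeq table of the 250 bases before and 50 bases after each start on GRCh38.p14 held 72 of the 89 nuclear members. Matches were counted on both strands. The NRF1 palindrome, the 10 bases in capitals in the ATP5F1C promoter, was in 4 of the 72, or 5.56%, beside 1.36% of all 27305 promoters, and its looser form, which takes any base at the 2 middle positions and so includes it, in 25.0% beside 8.78%. The ETS letters CCGGAAG were in 27.8% beside 10.7%, and the YY1 letters AANATGGCG in 22.2% beside 3.37%. Of the 12 members called higher in the ΔLEO1 line in both sera, 11 had a promoter in the table. Of these 1 held the palindrome, 3 the looser form, 2 the ETS and 4 the YY1 letters. The promoters of 3 of the 12 are printed to show what such windows hold, 5′ to 3′ along the gene, with matches in capitals. They are the NRF1 palindrome in ATP5F1C, the ETS letters and then the YY1 letters in SDHB, and no match in CYCS, the nuclear member with the largest positive difference.
ATP5F1C, chr10:7787927-7788226, plus strand: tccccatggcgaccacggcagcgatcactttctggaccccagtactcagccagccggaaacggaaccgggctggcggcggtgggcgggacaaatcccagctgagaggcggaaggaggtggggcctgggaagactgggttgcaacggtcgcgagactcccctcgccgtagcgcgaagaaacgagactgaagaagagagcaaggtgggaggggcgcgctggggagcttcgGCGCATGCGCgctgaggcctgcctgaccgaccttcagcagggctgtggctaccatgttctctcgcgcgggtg
SDHB, chr1:17053983-17054282, minus strand: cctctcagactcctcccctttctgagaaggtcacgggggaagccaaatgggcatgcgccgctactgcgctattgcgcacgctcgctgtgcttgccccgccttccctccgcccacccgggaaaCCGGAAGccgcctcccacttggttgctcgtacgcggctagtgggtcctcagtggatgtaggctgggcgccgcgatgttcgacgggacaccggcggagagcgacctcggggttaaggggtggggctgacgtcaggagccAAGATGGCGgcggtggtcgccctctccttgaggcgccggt
CYCS, chr7:25125211-25125510, minus strand: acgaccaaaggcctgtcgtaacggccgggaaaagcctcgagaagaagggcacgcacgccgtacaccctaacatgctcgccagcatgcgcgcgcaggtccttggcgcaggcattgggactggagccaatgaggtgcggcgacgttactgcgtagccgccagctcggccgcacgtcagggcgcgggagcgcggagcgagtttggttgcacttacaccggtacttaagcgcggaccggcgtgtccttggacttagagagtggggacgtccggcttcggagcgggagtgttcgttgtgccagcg
A match describes the letters alone. An exact search also misses near forms, so a window without a match may still hold a site. The first match in SDHB began 128 bases before the start and the second 10 bases after it, and that in ATP5F1C began 22 bases before the start.

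Where a subunit has tissue or condition isoforms, the form with the broad pattern prevailed. The log2 ratio of COX7A1 to COX7A2 was -1.28 ± 0.08 (SD, n = 3) in WT_10, -1.51 ± 0.27 in WT_01, -2.02 ± 0.26 in Leo1_10 and -2.05 ± 0.21 in Leo1_01, all 12 below 0. COX7A2L, which is known to join complexes into supercomplexes, exceeded COX7A2 by 0.58 ± 0.09 in WT_10 and 1.04 ± 0.10 in WT_01 and by 0.30 ± 0.01 in Leo1_10 and 0.72 ± 0.06 in Leo1_01 (SD, n = 3 each), on the same scale. The change with serum lay in COX7A2, which fell by 0.47 in the wild type and by 0.44 in the ΔLEO1 line on the log2 scale relative to other genes, while COX7A2L gave -0.004 and -0.02. NDUFA4L2, the isoform known to be induced by hypoxia, was low, at 0.675 to 6.21 CPM beside 56.4 to 107 CPM for NDUFA4. It was lower in Leo1_10 than in WT_10 (-1.15 ± 0.43, SE, adjusted p = 0.0223) and rose in Leo1_01 (1.17 ± 0.43, SE, adjusted p = 0.026), a call that was lost without library 12 (1.04, adjusted p = 0.0822). The 3 genes ATP5MC1, ATP5MC2 and ATP5MC3 encode the same mature ring subunit. The log2 ratio of ATP5MC2 to ATP5MC3 was 0.05 ± 0.04 in WT_10, 0.24 ± 0.10 in WT_01, -0.03 ± 0.02 in Leo1_10 and 0.09 ± 0.07 in Leo1_01 (SD, n = 3 each), and ATP5MC1 lay below ATP5MC3, with group means from -1.92 to -1.71.

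The response to serum was compared between genotypes with the interaction term. Relative to the other genes 1 of the 94 tested members was called, MT-ND3, at -1.21 ± 0.34 (SE, adjusted p = 0.0163), which is a smaller rise in the ΔLEO1 line (1.02% of all genes called lower, 3.06% higher). It stood in the ΔLEO1 line at 316, 330 and 321 CPM in 10% serum and at 503, 458 and, in library 12, 233 CPM in 0.1% serum. Relative to the nuclear subunits the term was -1.15 (adjusted p = 0.003; 0.567% lower, 3.39% higher), and without library 12 it was -0.92 relative to the other genes (adjusted p = 3.1e-05). The call was lost under the quasi-likelihood test, without library 1 and without library 5. No other member passed the test relative to the other genes, and 1 mitochondrial and 0 nuclear members besides had an unadjusted p under 0.05. On the ERCC scale 0 members were called by the likelihood ratio test, the quasi-likelihood test or DESeq2 and 1 had an unadjusted p under 0.05, where 0.0831% of all genes were called lower and 0.136% higher.

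The genes around the complexes were taken from lists and are given relative to the other genes, so that a rise in low serum is again one against the general shift on the ERCC scale. For each count the share of all genes is that given above, 16.6% lower and 16.0% higher for wild-type serum, 12.9% and 16.5% for ΔLEO1 serum, 21.8% and 17.7% for the genotypes in 10% serum and 17.6% and 15.4% in 0.1% serum. Without library 12 the shares of all genes were 15.7% and 18.5% for ΔLEO1 serum and 19.7% and 17.6% in 0.1% serum. Of 17 genes for the processing and stability of mitochondrial RNA, 8 were higher and 3 lower in Leo1_10 than in WT_10 (47.1% and 17.6%, beside 17.7% and 21.8% of all genes), with a median of 0.38. HSD17B10, a subunit of the RNase P that frees the mRNAs from their tRNAs, was higher by 0.68, PNPT1, a subunit of the mitochondrial degradosome, by 0.65, and MTPAP, the mitochondrial poly(A) polymerase, by 0.60, while PRORP, the catalytic subunit of RNase P, was lower, at -0.59. In 0.1% serum 4 were higher and 0 lower, with a median of 0.22, and 7 and 1 without library 12 (41.2% and 5.88%). With serum 3 rose and 3 fell in the wild type (17.6% each, near the shares of all genes), among them MTPAP (0.46) and HSD17B10 (-0.49). In the ΔLEO1 line 3 fell, and 4 without library 12 (23.5%). Of 16 genes for the copying and expression of mitochondrial DNA, 6 were higher and 1 lower in Leo1_10 (37.5% and 6.25%), with the helicase TWNK at 0.72 and the polymerase POLG at 0.69. Of the same 16, 4 rose and 1 fell in low serum in the wild type (25.0% and 6.25%), led by TOP1MT at 0.90 and TWNK at 0.77, and 2 rose and 1 fell in the ΔLEO1 line (12.5% and 6.25%), or 3 and 1 without library 12, with TOP1MT at 0.88. In 0.1% serum 3 of them were higher and 1 lower in the ΔLEO1 line (18.8% and 6.25%), or 4 and 2 without library 12.

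Of 10 tested regulators of nuclear respiratory genes, 0 were higher and 3 lower in Leo1_10 and 2 lower in Leo1_01. The shares called lower were near the 21.8% and 17.6% of all genes, and 2 were lower in 0.1% serum without library 12 as well. GABPB2, a subunit of GABP, gave -1.16 and -0.93 and MEF2A -0.60 and -0.62, and TFEB gave -0.65 in 10% serum. With serum, NRF1 rose by 0.34 in the wild type, and CREB1 and TFEB rose by 0.31 and 0.78 in the ΔLEO1 line. Of 55 tested assembly factors, 16 were higher and 6 lower in Leo1_10 (29.1% and 10.9%, beside 17.7% and 21.8% of all genes). In Leo1_01 8 were higher and 4 lower (14.5% and 7.27%, beside 15.4% and 17.6%), and 11 and 5 without library 12. TIMMDC1, which is needed to build the membrane arm of complex I, had the largest difference of the 55 in 10% serum, at 35.01, 32.8 and 34.8 CPM in WT_10 and 15.2, 17.0 and 17.2 CPM in Leo1_10, a log2 fold change of -1.06 (adjusted p = 3.83e-18), and it gave -0.72 in 0.1% serum. With serum 2 assembly factors rose and 2 fell in the wild type (3.64% each), and 3 rose and 6 fell in the ΔLEO1 line (5.45% and 10.9%), or 4 and 5 without library 12, all below the shares of all genes.

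Of 13 enzymes of the tricarboxylic acid cycle, 6 fell in each genotype in low serum (46.2%, beside 16.6% of all genes in the wild type and 12.9% in the ΔLEO1 line, where 6 also fell without library 12), with OGDH at -0.57 and -0.81 and FH at -0.57 and -0.76, and 1 rose in the wild type. Against the wild type 7 were higher in Leo1_10 (53.8% beside 17.7% of all genes) and 5 in Leo1_01 (38.5% beside 15.4%), or 7 in 0.1% serum without library 12, and 0 were lower. Of 20 genes for import, folding and inner membrane structure, 5 fell and 0 rose in the wild type in low serum (25.0% lower), led by the protease LONP1 at -0.79, and 4 fell in the ΔLEO1 line, or 3 without library 12, a share near the 15.7% of all genes. Against the wild type 6 were higher and 1 lower in Leo1_10, beside 17.7% and 21.8% of all genes, with the chaperonin subunits HSPD1 at 0.80 and HSPE1 at 0.71, and 4 were higher in 0.1% serum, beside 15.4% of all genes, or 9 without library 12, beside 17.6%. Of 13 tested genes for fusion, fission and mitophagy, 4 fell and 0 rose with serum in each genotype (30.8%), or 3 in the ΔLEO1 line without library 12, with BNIP3 at -1.92 in the wild type and -0.66 in the ΔLEO1 line, and 4 were higher and 1 lower in the ΔLEO1 line in each serum (30.8% and 7.69%), or 5 and 1 in 0.1% serum without library 12.

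Of 12 carriers and channels, 7 fell in the wild type in low serum (58.3% beside 16.6% of all genes) and 5 in the ΔLEO1 line (41.7% beside 12.9%), or 4 without library 12, with the proton carrier family member UCP2 at -1.69 and -1.18. The ADP/ATP carriers, which exchange the product of complex V for its substrate, differed between genotypes. SLC25A4 had 75 to 176 counts in WT_10 and 23 to 62 in WT_01, 0 or 1 count in Leo1_10 and 0 counts in all 3 libraries of Leo1_01. SLC25A5 was higher in the ΔLEO1 line by 0.85 (adjusted p = 1.64e-09) in 10% serum and by 0.71 (adjusted p = 9.73e-07) in 0.1% serum. Of the 12, 2 were higher and 1 lower in Leo1_10 (16.7% and 8.33%, beside 17.7% and 21.8% of all genes), and 7 were higher and 1 lower in Leo1_01 (58.3% and 8.33%, beside 15.4% and 17.6%), also without library 12.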

How the data were processed

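RNA of 12 libraries, 3 in each of 4 groups, was sequenced by the authors from an Illumina stranded poly(A) kit with ERCC transcripts added. Per the labels and the submitters' processing notes, reads were demultiplexed with bcl2fastq 2.20.0.422, aligned to GRCh38 with STAR 2.7.10a and counted per gene with featureCounts 1.5.1. The authors deposited raw counts, not normalised. The strand setting and the annotation release are not given in the sources used here.

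The deposited counts were fitted with edgeR 4.0.16 in R 4.3.3 (likelihood ratio test, Benjamini-Hochberg adjusted p under 0.05). The 12 libraries entered 1 fit over the 13236 genes with more than 1 CPM in at least 3 libraries. Library sizes came from the ERCC counts (ERCC scale), from TMM on all genes (relative to other genes), from the summed nuclear subunits or, chosen after seeing the data, from the summed mitochondrial mRNAs. The counts of complexes and related lists without library 12 were likewise added after seeing the data. Transcript lengths and mitochondrial sequences came from GENCODE transcripts, and promoters from RefSeq. Libraries held 26240000 to 45320000 gene counts. The alternatives were the quasi-likelihood test, DESeq2 1.42.0, other size factors, other filters and left-out libraries. Only the fits on the ERCC scale were tested on simulated data, with changes put into WT_01, and not those on the other scales.

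The members and lists were chosen with earlier results of these data known. Named by rule were the 13 mitochondrial genes, the isoform sets, the SDH genes, CYCS and CYC1, in each comparison the 3 nuclear members with the largest change in each direction among those called without overlap at 10 CPM or more, and at most 3 called genes in each direction of a related list. Other members and NDUFA7, NDUFV2, TIMM8B and AP002884.3 were named after the values were seen.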

Additional observations from a re-analysis of the deposited data

Results flagged for a closer look

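Among the members and the genes of the related lists, the serum response of 3 differed between the genotypes by the interaction term of the edgeR likelihood ratio test. That term compares the change from 10% to 0.1% serum in the ΔLEO1 line with that in the wild type. Relative to the other genes, 1.02% of all genes were called lower and 3.06% higher for it. The count of 3 is therefore not read as a result about these genes. MT-ND3 differed by -1.21 ± 0.34 (SE, adjusted p = 0.0163) on the log2 scale relative to the other genes and by -1.15 relative to the nuclear subunits (adjusted p = 0.003). Its call relative to the other genes was lost in 3 of 14 alternatives, the quasi-likelihood test among them. It rose in all 3 libraries of WT_01 against WT_10, and in the ΔLEO1 line the range in 0.1% serum, 233 to 503 CPM, spanned the range in 10% serum. BNIP3, a mitophagy receptor, differed by 1.26 ± 0.35 (SE, adjusted p = 0.0132). It stood at 162 to 178 CPM in WT_10, 35.8 to 53.1 in WT_01, 109 to 167 in Leo1_10 and 62.8 to 113 in Leo1_01, and library 12 held the 62.8. TFEB, a transcription factor of lysosomal and mitochondrial genes, differed by 0.56 ± 0.17 (SE, adjusted p = 0.0343). It stood at 20.1 to 22.9 CPM in WT_10, 25.4 to 26.6 in WT_01, 13.5 in all 3 libraries of Leo1_10 and 22.4 to 25.8 in Leo1_01. On the ERCC scale the terms of BNIP3 and TFEB were 0.93 and 0.44, with adjusted p of 1 for both. The cause of these differences was not tested, and alternatives for the calls of BNIP3 and TFEB are not given here.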

How the results depend on the processing

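On the ERCC scale the 39 members called in the wild-type serum comparison became 20 with the quasi-likelihood test, 69 with DESeq2, 24 with DESeq2 size factors on the genes, 13 with no filter, 80 without the highest-numbered library of each group and 0 with the 2 lowest-numbered libraries summed. The 81 of the ΔLEO1 serum comparison became 20 with DESeq2 size factors on the genes or TMM, 42 with no filter and 0 with the libraries summed. Between genotypes the 0 in 10% serum became 4 without the highest-numbered libraries, 2 with DESeq2 and 27 with size factors on the genes or TMM, and the 0 in 0.1% serum became 16 and 15 with these and 1 with no filter. The 0 of the interaction became 1 with both scalings on the genes. Relative to the other genes, leaving out the highest-numbered libraries turned 26, 20, 27, 15 and 1 calls (wild-type serum, ΔLEO1 serum, 10% serum, 0.1% serum, interaction) into 47, 42, 54, 62 and 10, and the quasi-likelihood test left 0 for the interaction. The shares of all genes called in the alternatives of this section are not given here, so the counts are not read as results about the members. Relative to the nuclear subunits the 6 mitochondrial calls of the ΔLEO1 serum comparison became 3 with the quasi-likelihood test and 13 without the highest-numbered libraries, which also turned 5 into 13 in 10% serum, 4 into 8 in 0.1% serum and 1 into 3 for the interaction, where the quasi-likelihood test left 0. The log2 ratio of the genomes moved without the highest-numbered libraries from 0.40 to 0.63 (ΔLEO1 serum), from -0.24 to 0.046 (0.1% serum) and from -0.34 to 0.043 (interaction), and with a mean over members from 0.10 to 0.34 (10% serum). The cause of these shifts was not tested. With single libraries left out, in the same order, the ERCC counts ran from 0 to 78, 0 to 92, 0 to 9, 0 to 2 and 0 to 0. Relative to the other genes they ran from 16 to 29, 10 to 25, 19 to 36, 10 to 32 and 0 to 1. Relative to the nuclear subunits they ran from 10 to 12, 2 to 12, 2 to 9, 2 to 5 and 1 to 1. The ratio differences ran from 0.65 to 0.79, 0.28 to 0.61, 0.02 to 0.15, -0.356 to -0.026 and -0.46 to -0.13. Library 12 gave the ratio differences of 0.61, -0.026 and -0.13. For 71 results on named genes, 917 of 1109 alternatives kept the call, 192 lost it and 0 reversed. No paired analysis was possible because the library numbers do not repeat between groups. With 3 libraries a group the precision is limited by the spread between libraries, whose ERCC share ran from 0.625% to 3.24%, and RNA input is not given.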
